A study of Mus musculus with 6 samples.

Results

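Plasma cell genes other than the immunoglobulins were measured in RNA from CD4 T cells. The 7 genes are Jchain, Mzb1, Sdc1, Derl3, Tnfrsf17, Fkbp11 and Pou2af1. They were chosen by symbol, found by their Ensembl identifiers in the GRCm38 annotation, and are 7 of the 28914 genes in the deposited table. The cells were sorted at 12 weeks of age from spleens of NOD mice, which become diabetic through autoimmunity, and were not stimulated through their T cell receptor. There are 3 groups of 2 libraries each. They are controls (WT, genotype WT), cells labelled Blimp1 knockout (CKO) and cells labelled Blimp-1 overexpression (BTg). CKO is written below for the libraries so labelled. The sources used here name neither the Cre driver or floxed part behind the knockout nor the promoter behind the overexpression, and do not tell whether libraries of a group are separate mice. The p-values therefore cover the spread between libraries, which may be technical.

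Plasma cells are the end stage of the B cell lineage and secrete antibody. Blimp-1, the repressor encoded by Prdm1, drives their formation by shutting off B cell genes, while Xbp1 and Irf4 build the secretory state. T cells also use Blimp-1, where it restrains follicular helper and memory programmes, but antibody genes and their assembly factors are not part of the known T cell programme. The 7 genes thus cover an antibody component, 3 proteins of the endoplasmic reticulum (ER), 2 surface proteins and a nuclear coactivator.

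The libraries held 14958458 to 17799091 reads on genes. Prdm1 stood at 0.458 and 0.628 FPKM (reads per gene length and library size) in WT, 0.849 and 0.669 in CKO and 19.6 and 30.1 in BTg, so BTg carried far more of it. The deleted part is not named, so the summed level of the gene is no check of the knockout label. CKO replicate 1 stood apart from the other 5 libraries. Genes of 9 neutrophil proteins took 1.32% of its reads and at most 0.0392% of the reads of any other library. For CKO, the main tests of the plasma cell genes and the list medians printed are given with and without it. Other tests of CKO include it unless stated. CD4 T cell markers were present in every library (Cd4 at 53.8 FPKM or more, Cd3e at 36.95 or more), and Cd8a stayed at or under 0.130 FPKM. Cd8b1, the other CD8 marker listed, was higher than Cd8a in every library. It stood at 0.814 and 0.423 FPKM in WT, 0.168 and 0.403 in CKO, and 0.325 and 0.282 in BTg.

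Jchain (ENSMUSG00000067149, chromosome 5, 88519809 to 88527891, minus strand, GRCm38) encodes the joining chain that links IgM and IgA into polymers. It stood at 124.7 and 109.7 FPKM in WT, 724 and 175.5 in CKO, and 99.85 and 56.35 in BTg. Both CKO libraries were above both WT libraries, and both BTg libraries were below them. In bulk RNA, more or fewer cells of a type and more or less RNA per cell cannot be told apart. The values rest on 15761 and 11895 reads in WT, 91607 and 22118 in CKO, and 10823 and 5990 in BTg. Jchain alone made up 88.9 to 94.6% of the reads of the 7 genes in each library, so a sum over the 7 is mostly Jchain.

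Among the ER proteins, Mzb1 (ENSMUSG00000024353), a cochaperone of B lineage cells that helps fold immunoglobulin, stood at 7.735 and 9.41 FPKM in WT, 63.3 and 19.0 in CKO, and 7.60 and 5.61 in BTg. The order of the groups was that of Jchain, with no overlap between them. An exon of Mzb1 overlaps an exon of Spata24 on the same strand, so the split of reads is uncertain there. Derl3 (ENSMUSG00000009092, chromosome 10, 75893413 to 75895941, plus strand) encodes a derlin, which helps draw misfolded proteins out of the ER for degradation. It stood at 3.44 and 8.28 FPKM in WT, 35.6 and 10.3 in CKO, and 4.06 and 4.20 in BTg. The WT libraries differed by 2.41-fold, WT replicate 2 came close to CKO replicate 2, and the BTg libraries lay between the WT libraries.

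Fkbp11 (ENSMUSG00000003355, chromosome 15, 98724366 to 98728198, minus strand) encodes a peptidyl-prolyl isomerase of secretory cells. It stood at 0.4455 and 0.554 FPKM in WT, 8.32 and 1.19 in CKO, and 0.450 and 0.512 in BTg. These came from 30 and 32 reads in WT, 561 and 80 in CKO, and 26 and 29 in BTg. WT and BTg overlapped, and only the CKO libraries passed 1 FPKM. Of the 7 genes it had the widest gap between the CKO libraries, with replicate 1 at 6.99 times replicate 2.

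Of the surface proteins, Sdc1 (ENSMUSG00000020592, chromosome 12, 8771323 to 8793715, plus strand) encodes syndecan-1, or CD138, the proteoglycan by which plasma cells are usually sorted. It stood at 0.58 and 0.851 FPKM in WT, 2.17 and 0.9035 in CKO, and 0.594 and 0.469 in BTg. CKO replicate 2, with 306 reads, was barely above WT replicate 2, with 248, and WT and BTg overlapped. Tnfrsf17 (ENSMUSG00000022496, chromosome 16, 11313812 to 11320074, plus strand) encodes BCMA, a receptor for the survival factors BAFF and APRIL. It stood at 0.1975 and 0.230 FPKM in WT, 2.27 and 0.549 in CKO, and 0.199 and 0.139 in BTg. Its 22 and 22 reads in WT and 19 and 13 in BTg set a coarse limit on comparing these groups, against 253 and 61 reads in CKO.

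Pou2af1 (ENSMUSG00000032053, chromosome 9, 51213708 to 51240080, plus strand) encodes OCA-B, a coactivator that binds octamer factors on immunoglobulin promoters. It stood at 1.42 and 1.93 FPKM in WT, 5.71 and 3.00 in CKO, and 1.16 and 1.598 in BTg. It had the smallest gap between the CKO libraries, at 1.91-fold, and WT and BTg overlapped. The plot of each gene by library shows the shared order and the distance of CKO replicate 1 from the rest.

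Promoter sequences, 250 bases before to 50 bases after an annotated start, were available for 6 of the 7 genes in RefSeq (GRCm38.p6), with 7 starts since Fkbp11 has 2. They were searched on both strands for the octamer ATGCAAAT, the element TGACGTG of the unfolded protein response, the core AGNGAAAG bound by Blimp-1, and the ER stress response element, CCAAT and CCACG 9 bases apart. The octamer is in 1.74% of 32851 promoters of this length and the Blimp-1 core in 8.63%, and neither is in these 7. TGACGTG is in 2.01% of promoters, and in 2 of the 7, those of Pou2af1 and of the second start of Fkbp11. The ER stress response element is in 0.119% of promoters, and in 1 of the 7, that of Derl3. The bases before the start are shown for Derl3 and Pou2af1 because they hold these matches; capitals mark the match, and no match overlaps another. The mice are NOD, and the reference is C57BL/6J.
Derl3, chr10:75893148-75893397, plus strand, element on the opposite strand from -156 to -138: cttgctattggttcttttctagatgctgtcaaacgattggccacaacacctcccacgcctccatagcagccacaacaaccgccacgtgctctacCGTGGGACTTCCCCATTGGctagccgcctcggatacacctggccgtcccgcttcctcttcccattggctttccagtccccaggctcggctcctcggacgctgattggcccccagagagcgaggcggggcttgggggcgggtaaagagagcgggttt
Pou2af1, chr9:51213440-51213689, plus strand, element on this strand from -61 to -55: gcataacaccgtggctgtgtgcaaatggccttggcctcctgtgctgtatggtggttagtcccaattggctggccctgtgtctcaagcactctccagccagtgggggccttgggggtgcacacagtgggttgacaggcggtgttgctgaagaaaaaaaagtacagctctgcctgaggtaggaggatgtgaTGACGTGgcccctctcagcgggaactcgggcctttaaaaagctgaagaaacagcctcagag
Positions count back from the start, whose base is 0. A match describes letters only, and binding was not measured.

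**Figure D1:**
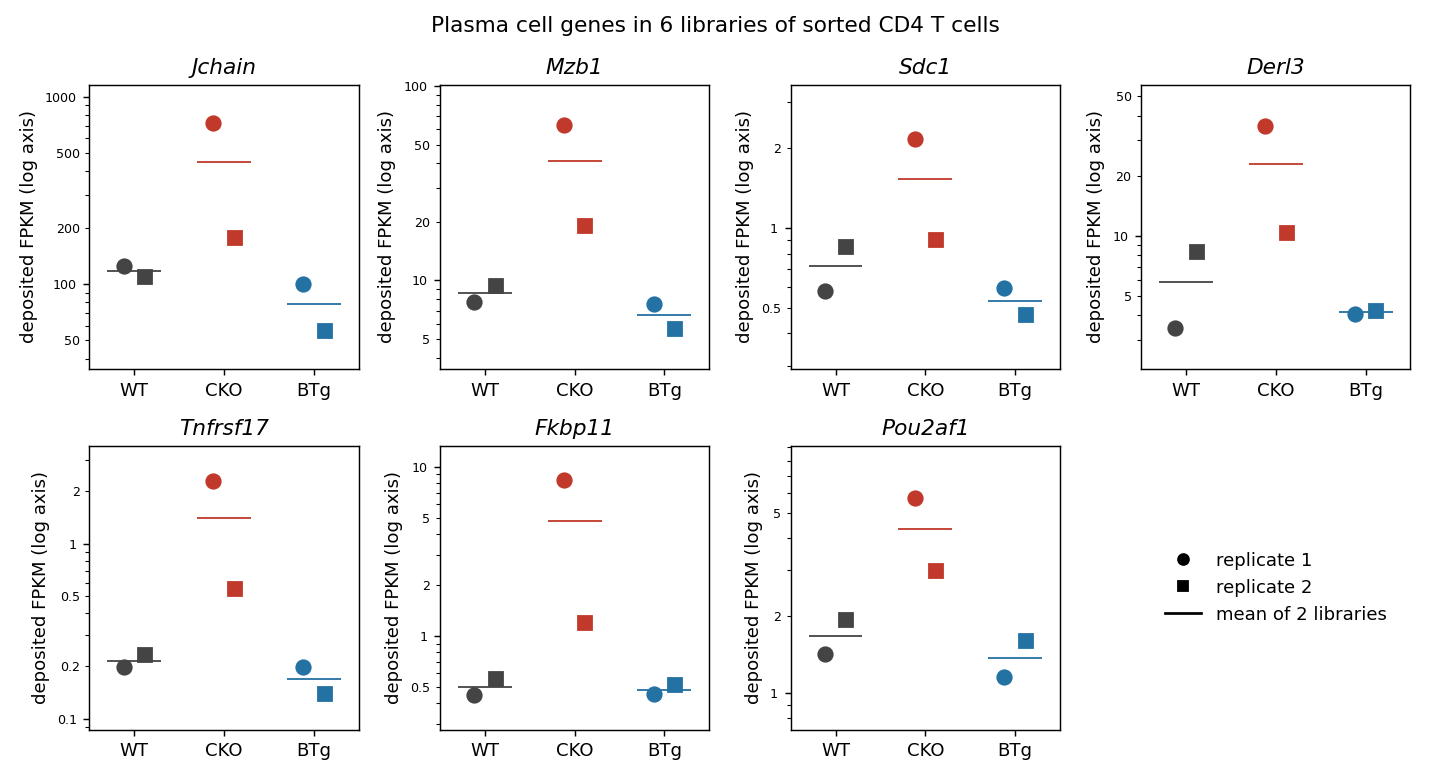
Deposited FPKM of each of the 7 genes (log axis) in the 6 libraries, by group, with circles for replicate 1, squares for replicate 2 and a line at the mean of both. In every panel the CKO libraries lie above both WT libraries, and replicate 1 lies above replicate 2, by 1.91-fold for Pou2af1 and 6.99-fold for Fkbp11.

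Plasma cell genes were higher in the libraries labelled CKO than in WT, and no gene passed the test. All 7 had both CKO libraries above both WT libraries. Of the genes tested 11.5% did so, where tested means at least 1 FPKM in at least 2 libraries. CKO replicate 1 stood at 3.04 times the WT mean for Sdc1, 3.41 for Pou2af1, 6.07 for Derl3, 6.18 for Jchain, 7.38 for Mzb1, 10.6 for Tnfrsf17 and 16.7 for Fkbp11. CKO replicate 2 was much nearer, at 1.26 times the WT mean for Sdc1, 1.50 for Jchain, 1.76 for Derl3, 1.79 for Pou2af1, 2.22 for Mzb1, 2.39 for Fkbp11 and 2.57 for Tnfrsf17. The 2 libraries thus shared a direction and differed in size.

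In the limma fit on log2(FPKM + 1) 5 of the 7 genes were tested, since Sdc1 and Tnfrsf17 reached 1 FPKM in CKO replicate 1 only, and Fkbp11 entered only through the CKO libraries, where it is high. The log2 differences were 1.91 (SE 0.55) for Mzb1, 1.66 (SE 0.61) for Derl3, 1.601 (SE 0.70) for Jchain, 1.59 (SE 0.64) for Fkbp11 and 0.96 (SE 0.30) for Pou2af1, each with adjusted p = 1. The count past adjusted p under 0.05 was 0 of 5, as it was for all genes tested (0%). At unadjusted p under 0.05, 4 of 5 were higher, all but Jchain, beside 3.11% of all genes tested; Fkbp11, among the 4, was set to be higher by the filter. With no filter on low values, limma gave 0.89 (SE 0.39) for Tnfrsf17 and 0.52 (SE 0.30) for Sdc1, each with adjusted p = 0.921. On whole reads recovered from the FPKM, limma voom tested all 7 and called 0, beside 0% of all genes in that fit. At its unadjusted p under 0.05, 3 were higher, beside 3.95% of all genes in that fit. The median over the 7 genes was 1.59, beside -0.03 over all genes tested.

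Leaving out CKO replicate 1 kept the direction at a smaller size. The log2 differences were then 1.07 (SE 0.27) for Mzb1, 0.82 (SE 0.47) for Derl3, 0.59 (SE 0.25) for Pou2af1, 0.58 (SE 0.44) for Jchain and 0.55 (SE 0.24) for Fkbp11, each with limma adjusted p = 0.996. Mzb1 alone, 1 of 5, was then higher at unadjusted p under 0.05, beside 2.19% of all genes tested. The median over the 7 was 0.58, beside 0.11 over all genes tested. This fit leaves CKO replicate 2 alone in its group, assumed to vary like the other groups. Without CKO replicate 2, under the same assumption, the differences were 2.75 for Mzb1, 2.64 for Fkbp11, 2.62 for Jchain, 2.51 for Derl3 and 1.33 for Pou2af1. These rest on CKO replicate 1 alone. Only in that fit did any plasma cell gene reach limma adjusted p under 0.05 in this comparison. Fkbp11 was again set to be higher by the filter, which used all 6 libraries.

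The BTg mean lay below the WT mean for all 7 plasma cell genes, none past the test, while Prdm1 was 36.1 and 55.4 times the WT mean in BTg replicates 1 and 2. Jchain and Mzb1 had both BTg libraries below both WT libraries, 2 of 7 genes beside 10.4% of all genes tested, and in 0 of 7 were both above. The log2 differences were -0.63 (SE 0.70) for Jchain, -0.34 (SE 0.55) for Mzb1, -0.32 (SE 0.61) for Derl3, -0.17 (SE 0.30) for Pou2af1 and -0.02 (SE 0.64) for Fkbp11, each with limma adjusted p = 1. The 95% intervals of single genes were wide, from -2.34 to 1.07 for Jchain and from -0.91 to 0.57 for Pou2af1, so neither a decrease nor an increase of 1 log2 unit is outside the interval for Jchain. No plasma cell gene passed, beside 0.0185% of all genes tested, and 0 of 5 were lower at unadjusted p under 0.05, beside 0.852% of all genes tested. The median over the 7 was -0.17, beside 0.02 over all genes tested. Limma voom called 0 of 7, beside 0.0126% of all genes in that fit. At unadjusted p under 0.05 in limma voom, 0 were lower, beside 1.32% of all genes, and 0 were higher, beside 0.515%. The signs for Derl3 and Fkbp11 turned without WT replicate 2, to 0.21 and 0.03.

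BTg against CKO uses the same CKO and BTg libraries, so its values follow from those above. All 7 genes had both BTg libraries below both CKO libraries, beside 21.8% of all genes tested. The log2 differences were -2.25 (SE 0.55) for Mzb1, -2.23 (SE 0.70) for Jchain, -1.99 (SE 0.61) for Derl3, -1.61 (SE 0.64) for Fkbp11 and -1.13 (SE 0.30) for Pou2af1. Their limma adjusted p = 0.360, 0.470, 0.470, 0.557 and 0.427 in that order, so 0 of 5 passed, beside 0.0185% of all genes tested. At unadjusted p under 0.05, 5 of 5 were lower, beside 6.01% of all genes tested, Fkbp11 among them, which passed the filter only through CKO and so had to be lower. The median over the 7 was -1.61, beside 0.06 over all genes tested. Limma voom called 0 of 7, beside 0.0314% of all genes in that fit, and 5 were lower at unadjusted p under 0.05, beside 9.32%. With CKO replicate 1 left out the differences became -1.41 (SE 0.27) for Mzb1, -1.21 (SE 0.44) for Jchain, -1.14 (SE 0.47) for Derl3, -0.57 (SE 0.24) for Fkbp11 and -0.76 (SE 0.25) for Pou2af1. Of these 5, 3 were lower at unadjusted p under 0.05, beside 3.71% of all genes tested, and the median over the 7 was -0.76, beside -0.05 over all genes tested. Without CKO replicate 2 the differences were -3.25 for Jchain, -3.09 for Mzb1, -2.83 for Derl3, -2.65 for Fkbp11 and -1.50 for Pou2af1. CKO is then a single library, replicate 1, which stood apart. Only in that fit did any plasma cell gene reach limma adjusted p under 0.05 in this comparison. Fkbp11 was again set to be lower by the filter, which used all 6 libraries.

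**Figure D2:**
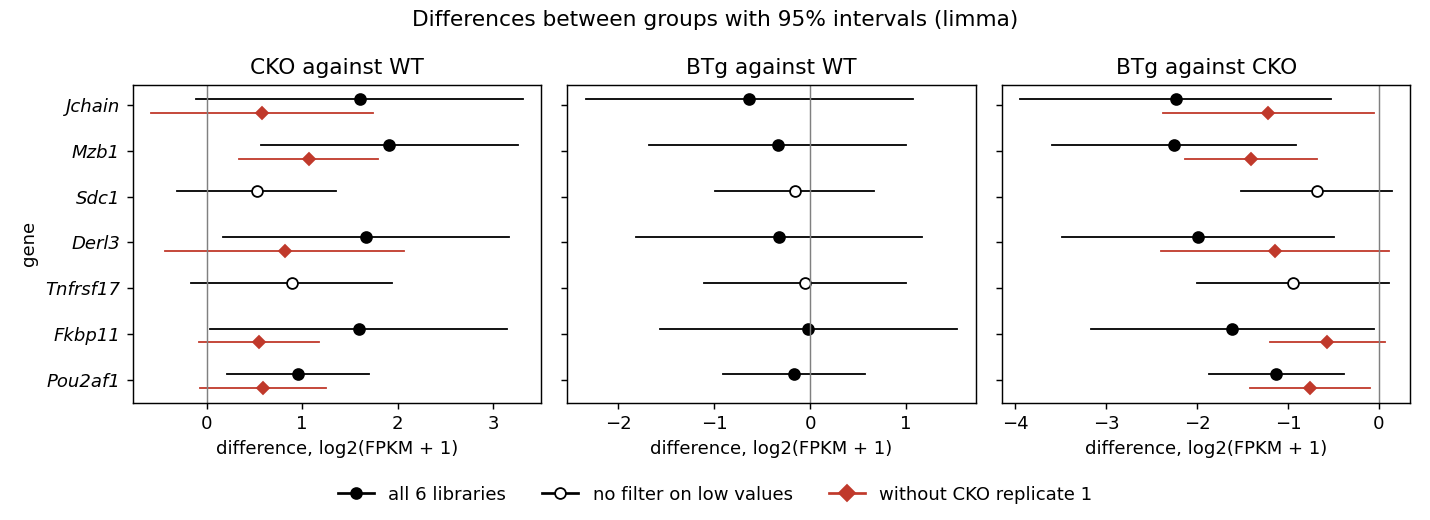
Log2 differences of FPKM + 1 between groups with 95% intervals from limma, for each gene in the 3 comparisons; black circles use all 6 libraries, open circles the fit with no filter on low values (Sdc1 and Tnfrsf17), and red diamonds leave out CKO replicate 1 (5 tested genes, not drawn for BTg against WT). All points lie above 0 for CKO against WT and below 0 in the other panels, and leaving out CKO replicate 1 moves Jchain from 1.601 to 0.58.

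Levels of different genes were compared as FPKM per exon length, since the deposited values divide by gene span. On this scale Jchain stood first in all 6 libraries, at 331 ± 30.0 in WT (mean ± SD, n = 2), and the others were far below. Pou2af1 followed at 10.9 ± 2.37, Mzb1 at 8.16 ± 1.13, Derl3 at 3.70 ± 2.16, Sdc1 at 3.59 ± 0.961, Tnfrsf17 at 1.64 ± 0.178 and Fkbp11 at 0.699 ± 0.107. The WT libraries of Pou2af1 and Mzb1 did not overlap, while those of Derl3 and Sdc1 did. In CKO replicate 1 the order shifted, with Mzb1 at 60.2 above Pou2af1 at 37.3 and with Sdc1, at 10.9, last behind Fkbp11 at 11.65.

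The genes also kept different proportions to Jchain. Tnfrsf17 was 0.853 and 0.852% of Jchain in CKO against 0.431 and 0.571% in WT and 0.542 and 0.670% in BTg, nearly the same share in both CKO libraries despite their different levels. Fkbp11 was 0.570 and 0.336% in CKO, 0.177 and 0.250% in WT, and 0.2235 and 0.450% in BTg. Pou2af1 went the other way in CKO replicate 1, at 1.83% of Jchain, against 2.63 to 6.56% in the other 5 libraries. So did Sdc1, at 0.533% there against 0.826 to 1.48% in the other 5. Per 1000 reads of the kappa light chain constant gene Igkc, Jchain had 271 to 473 reads and Mzb1 3.855 to 5.64 over the 6 libraries, a much narrower range than that of their levels. Pou2af1 had 5.02 in CKO replicate 1 and 10.4 to 18.9 elsewhere, and Sdc1 had 2.19 and 4.42 to 6.38.

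Other plasma cell genes, a list of 18, had smaller differences at the median. In CKO 16 of 18 were higher than in WT, 14 without overlap, beside 11.5% of all genes tested. Their median log2 difference was 0.45 (0.28 without CKO replicate 1), beside -0.03 (0.11) over all genes tested. Of the 12 tested 0 passed, with 5 higher at unadjusted p under 0.05, beside 3.11% of all genes tested. Xbp1, the transcription factor that expands the secretory pathway, stood at 24.2 and 32.1 FPKM in WT, 119.6 and 41.9 in CKO, and 26.3 and 24.45 in BTg. Irf4, needed for plasma cells and also induced in activated T cells, stood at 1.13 and 1.82 in WT, 4.33 and 3.32 in CKO, and 0.801 and 1.23 in BTg, with CKO libraries much closer to each other than those of Jchain. Their log2 differences in CKO were 1.32 (SE 0.51) and 0.97 (SE 0.25), with limma adjusted p = 1 and 0.934. Creld2, an ER chaperone, stood at 4.82 and 5.67 FPKM in the WT libraries, and 25.6 and 6.56 in CKO. Of genes picked after their values were seen, Trib1 was alike in both CKO libraries, at 3.05 and 2.95, against 1.28 and 1.24 in WT, while Ly6c2, also a monocyte marker, differed, at 19.1 and 2.29. In BTg 14 of 18 were lower, with a median of -0.13 and 0 of 12 past the threshold; Edem1, of the ER degradation pathway, was the other way, at 44.4 and 51.5 FPKM against 30.5 and 38.5 in WT. In BTg against CKO 15 of 18 were lower, with a median of -0.62 (-0.44 without CKO replicate 1) and 0 of 12 past the threshold.

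General secretory pathway genes of the ER, which all cells use, were higher mainly in CKO replicate 1. Of 32 genes, 32 were higher in CKO on average, 15 without overlap (11.5% of all genes tested), with a median of 0.56, and 0 passed or had unadjusted p under 0.05. Without CKO replicate 1, 23 were higher and the median was 0.11, equal to that over all genes tested. Hspa5, the ER chaperone BiP, stood at 282 and 245 FPKM in the WT libraries, and 950.4 and 286 in CKO, and Calr, the chaperone calreticulin, at 184 and 250.1 in WT and 769.9 and 244 in CKO. Hsp90b1, the chaperone that Mzb1 assists, was picked after its values were seen and stood at 45.55 and 51.9 in WT and 201 and 58.4 in CKO. In BTg 22 of 32 were lower than in WT, with a median of -0.08, and 32 of 32 were lower than in CKO, with a median of -0.64. Without CKO replicate 1, 5 of 32 were higher in BTg than in CKO and the median was -0.15. None passed in either comparison.

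The derlins show the contrast within a family. Per exon length, Derl1 stood at 41.2 and 41.2 FPKM in WT, 58.7 and 42.1 in CKO, and 44.4 and 37.3 in BTg. Derl2 stayed between 7.705 and 8.46 in all 6 libraries. Derl3 made up 4.23 and 9.58% of the summed level of the 3 derlins in WT, 25.15 and 11.4% in CKO, and 4.70 and 5.47% in BTg. The plot of CKO replicate 1 against replicate 2 sets these groups side by side.

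**Figure D3:**
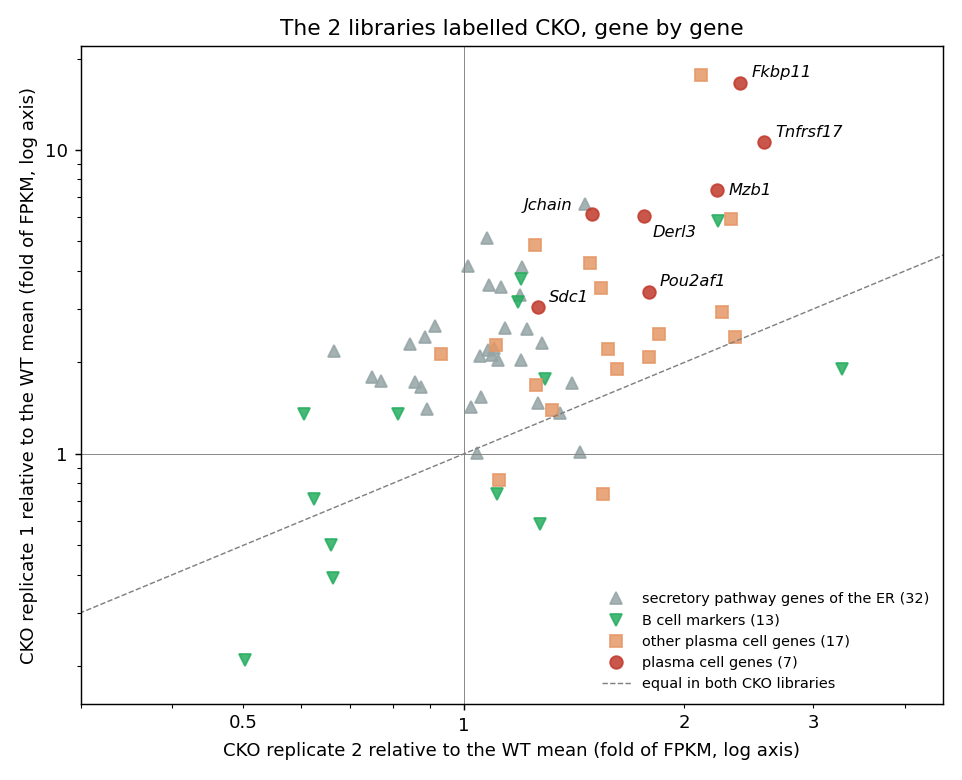
Fold of deposited FPKM over the WT mean in CKO replicate 1 (vertical, log axis) against CKO replicate 2 (horizontal, log axis), 1 point per gene with at least 20 reads over the 6 libraries; the dashed line marks equal folds. The 7 plasma cell genes lie at 1.26 to 2.57 on the horizontal and 3.04 to 16.7 on the vertical axis, while secretory pathway genes are raised mainly on the vertical axis and B cell markers scatter around 1.

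Immunoglobulin segments took 0.850 and 1.17% of reads in WT, 6.98 and 1.80% in CKO, and 0.877 and 0.703% in BTg, the same order of groups as Jchain save that BTg replicate 1 was above WT replicate 1. Igkc stood at 3524 and 4791 FPKM in WT, 35660 and 7332 in CKO, and 3476 and 2650.0 in BTg.

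Markers of B cells had no shared direction over the whole list, of which only 3 passed the filter. Of 13 markers 7 were higher and 6 lower in CKO than in WT, with a median of 0.00 (0.11 without CKO replicate 1). Without overlap 3 were higher, beside 11.5% of all genes tested, and 1 was lower, a direction not counted over all genes. Ms4a1, encoding CD20, stood at 0.241 and 0.388 FPKM in the WT libraries, and 0.425 and 0.190 in CKO. Pax5, which Blimp-1 represses in plasma cells, was at most 0.0231 FPKM in every library, or at most 0.466 per exon length, from 16 to 63 reads. Cd79a and Cd79b encode the signalling chains of the B cell receptor. Cd79a stood at 2.08 and 4.285 FPKM in the WT libraries against 10.02 and 3.77 in CKO, and Cd79b at 2.71 and 2.84 in WT against 10.4 and 3.31 in CKO. The summed level of the 13 per exon length was 19.9 to 37.0 in WT, 37.2 to 73.0 in CKO and 17.2 to 21.4 in BTg. In BTg 8 of 13 were lower than in WT, with a median of -0.01.

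Markers of other cell types were also highest in CKO replicate 1 for neutrophils, monocytes and basophils, and their part in the result was not tested. Of 9 neutrophil markers all were higher in CKO than in WT (median 3.77 on the log2 scale, or 1.20 without CKO replicate 1), and their summed level per exon length was 80.5 to 241 in WT, 317 to 15350 in CKO and 44.2 to 46.2 in BTg. S100a8, a neutrophil calcium-binding protein, stood at 7.555 and 24.5 FPKM in WT, 3612 and 43.8 in CKO, and 1.455 and 1.41 in BTg. Monocyte and macrophage markers were higher in 10 of 10, at 26.3 to 78.7 in WT, 115 to 770.1 in CKO and 21.7 to 21.9 in BTg. Basophil and mast cell markers were higher in 6 of 6, at 5.24 to 16.2 in WT, 28.4 to 298 in CKO and 5.94 to 6.48 in BTg. No defining marker of these 3 lists was at 0 in CKO. The 10 erythroid markers had their highest sum in WT replicate 2, at 1914, against 420 in WT replicate 1, 1102 and 1285 in CKO, and 361 and 472 in BTg, with 9 of 10 higher in CKO than in WT. In BTg 9 of 9 neutrophil markers had both libraries below both WT libraries, beside 10.4% of all genes tested.

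Plasmacytoid dendritic cells can also express Jchain and Mzb1. Of 10 of their markers 5 were highest in CKO replicate 1, and their part in the result was not tested. Ly6d, which B cells also express, stood at 4.71 and 2.72 FPKM in WT, 12.2 and 3.06 in CKO, and 4.44 and 1.67 in BTg. Siglech, their defining marker, stood at 0.0662 and 0.484 in WT, 0.0301 (from 5 reads) and 0.664 in CKO, and 0.0631 and 0.129 in BTg, and 1 marker, Klk1, was listed at 0 in CKO replicate 1. The 10 markers summed to 30.7 to 33.8 in WT, 39.3 to 52.9 in CKO and 24.3 to 28.5 in BTg per exon length, with 7 higher in CKO than in WT. By mean log2(FPKM + 1), CD4 T cell markers were lower in CKO than in WT in 12 of 12 (4 of 12 were higher without CKO replicate 1). In BTg 11 of 12 were higher than in WT, and none passed the threshold in either comparison. Without overlap 1 was lower in CKO and 3 were higher in BTg, directions not counted over all genes. The CD4 T cell markers summed to 2993 to 5365 in WT, 2595 to 3263 in CKO and 3698 to 4938 in BTg. The 15 cell cycle genes were all higher in CKO, summing to 257 to 649 in WT, 554 to 849 in CKO and 271 to 293 in BTg.

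**Figure D4:**
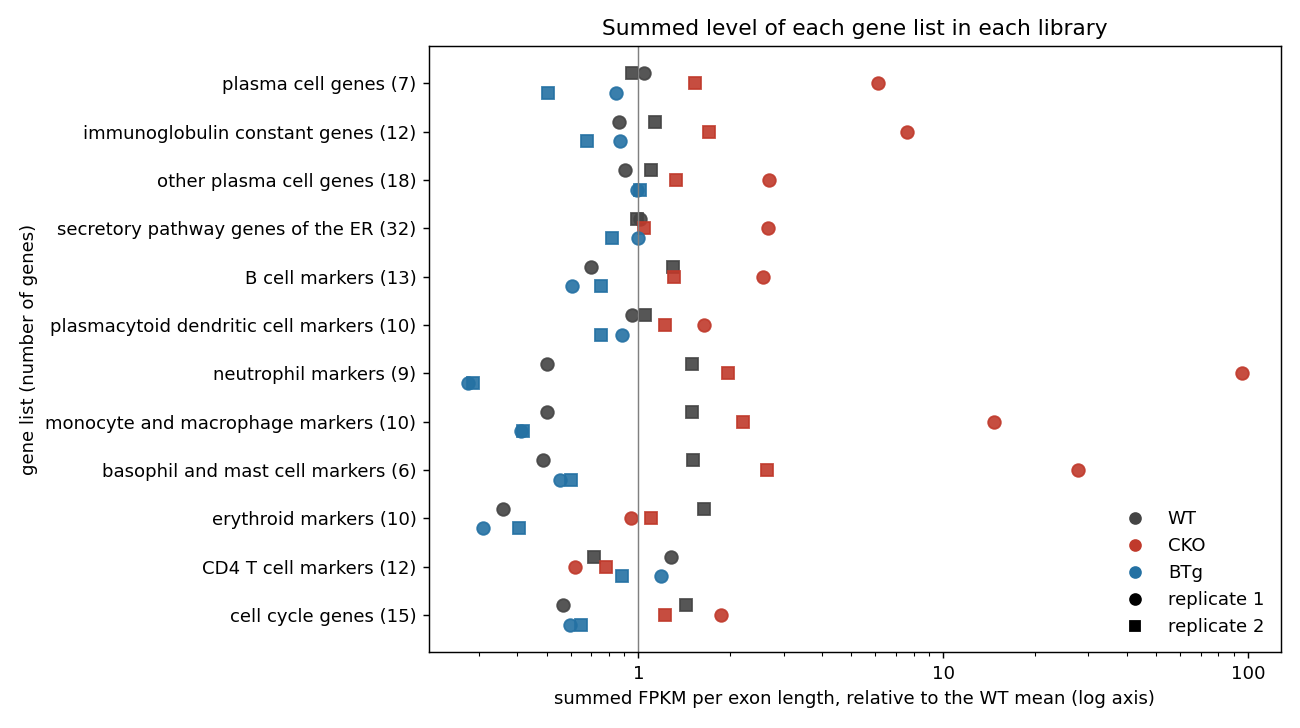
Summed FPKM per exon length of each gene list in each library, relative to the WT mean (log axis), by group (colour) and replicate (shape), with the number of genes in brackets. The plasma cell genes stand at 6.13 and 1.53 times the WT mean in CKO, beside 95.6 and 1.97 for neutrophil markers, 2.66 and 1.04 for secretory pathway genes and 2.57 and 1.31 for B cell markers.

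The genes most like the plasma cell genes across libraries were found by Pearson correlation with their mean centred log2(FPKM + 1), as a description. Over 6 libraries these included Xbp1, Psat1, S100a11 and Mcpt8, with r of 0.994 or more, but 9.06% of 2052 candidate genes had r over 0.95, with CKO replicate 1 far from the other points. Mcpt8, a basophil protease, stood at 0.3695 and 1.335 FPKM in WT, with CKO at 38.5 and 3.00. Over the 5 libraries without it the genes were Fut7, S100a11, Marcksl1, Cebpa and Itpripl2, with r of 0.979 to 0.997, and 4% of 750 candidates had r over 0.95. Fut7, an enzyme that makes selectin ligands on effector T cells and myeloid cells, stood at 1.22 and 1.61 FPKM in WT, 5.07 and 3.11 in CKO, and 1.08 and 0.873 in BTg. Each plasma cell gene against the mean of the other 6 had r from 0.957 to 0.991 over 6 libraries, and from 0.734 for Jchain to 0.981 for Mzb1 over 5.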

How the data were processed

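TRIzol RNA and a NEBNext Ultra library kit were used, per the labels' protocols. Trimmomatic 0.38, HISAT2 2.1.0, featureCounts 1.6.0 and build GRCm38 are named in the submitters' processing notes; the sources used here give no settings, annotation release or strand. The authors deposited 1 table of FPKM values. With length set to the median span, introns included, of the transcripts of a gene in GENCODE M21, all values above 0 (100.0%) were whole reads within 0.01; these reads gave FPKM per merged exon length. A ratio of 1 gene between libraries does not depend on the length.

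All 28914 identifiers matched GENCODE M21. The 10798 genes reaching 1 FPKM in 2 or more libraries entered limma 3.58.1 (R 4.3.3; lmFit, eBayes with a trend) on log2(FPKM + 1), 6 libraries in 1 fit, Benjamini-Hochberg adjusted p under 0.05 over all genes. This scale understates changes of low genes. A 2 against 2 exact permutation test cannot go below p = 0.333 (two-sided), so none is given. The fit was also run on simulated data in which each gene had the same spread in all libraries. That run cannot tell how the fit behaves with a library that stands apart, as CKO replicate 1 did. The members and lists were chosen with earlier results of these data known. Named genes are the members, a fixed set of marker and regulator genes, the highest members of each list, and the 5 genes of most like pattern; any other is marked in the text as picked afterwards, and 2 genes that the rule names are not reported here. Alternatives were other pseudocounts (0.1, 0.5), filters, scalings, variance models, a replicate block, limma voom on recovered reads (TMM scaling, at least 10 reads in 2 libraries), exon length, and leaving out each library. Replicate numbers come from the titles' brackets; both BTg titles otherwise end in 1. Figures used matplotlib 3.10.9.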

Additional observations from a re-analysis of the deposited data

How the results depend on the processing

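With 17 alternatives included, the plasma cell genes kept their direction in CKO against WT (98 of 98 gene values higher) and in BTg against CKO (98 of 98 lower). Several alternatives could not change a difference, so these counts overstate the check. They are the other filters, the replicate block, no trend, fits of only the 2 groups compared, and leaving out a library of the group not compared. In each plasma cell gene both CKO libraries lay above every WT and BTg library. Another pseudocount, exon length or leaving out any library therefore could not turn a sign in these 2 comparisons. Under the main filter the direction of Fkbp11 in both comparisons was also fixed. In BTg against WT 4 of 98 turned higher, namely Fkbp11 under quantile normalization (0.0937), without WT replicate 2 (0.0347) and without BTg replicate 1 (0.0127), and Derl3 without WT replicate 2 (0.208). Leaving out 1 library each, Derl3 ranged from -0.855 to 0.208 and Fkbp11 from -0.0695 to 0.0347. Over all settings of BTg against WT, the limma adjusted p of the plasma cell genes was 0.981 or more. The count of all genes past the threshold was 0 in CKO against WT, 65 with no filter on low values and 0 to 81 leaving out 1 library each. In BTg against WT it was 2, 46 with no filter, 0 with quantile normalization or in fits of only the 2 groups compared, and 0 leaving out any 1 library. In BTg against CKO it was 2, 81 with no filter, 0 with a filter of 0.5 FPKM in 1 library, 0 with quantile normalization, 0 in fits of 2 groups, 5 with limma voom, 9 with exon length and 0 to 255 leaving out 1 library each, the highest without CKO replicate 2. With a replicate block it was 0 in each comparison, and no plasma cell gene changed its call. The difference between replicates 1 and 2 correlated over genes between groups with r of 0.173 to 0.469, but no label says that equal numbers share a source, so they were not taken as pairs. The cause of these shifts was not tested. Depth limits Tnfrsf17 and Fkbp11, with 13 to 32 reads in each WT and BTg library.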

Other observations

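Of the reads on heavy chain constant genes, Ighm, the IgM chain, took 72.55 and 65.9% in WT, 38.0 and 42.4% in CKO, and 82.0 and 81.3% in BTg. Igha, the IgA chain, took 11.1 and 24.1% in WT, 37.0 and 32.8% in CKO, and 8.75 and 11.5% in BTg, and Ighg2c, an IgG chain picked after its values were seen, took 4.73 and 3.06% in WT, 8.985 and 10.4% in CKO, and 3.565 and 0.5755% in BTg. The share of Ighg3, an IgG chain, was 0.919 and 0.0202% in WT, 0.6485 and 1.15% in CKO, and 1.365 and 3.81% in BTg. For Ighm, Igha and Ighg2c the groups did not overlap between CKO and WT, or between CKO and BTg. These are shares of reads, not of molecules, and the heavy chain genes are near copies in part, so the division of reads among the IgG classes is uncertain. In level, Ighm itself was 1181 FPKM in WT replicate 2 and 1169 in CKO replicate 2, while Igha was 384 and 803 there. The differences were not tested as shares.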
